A study of Mus musculus with 20 samples.

Results

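The 999 sites described here had the highest ratio of modified to input RNA among single-nucleotide m6A sites measured in mouse myocardium. They are the highest 10% of 9987 sites that gave a measurable signal in both RNA fractions on at least 5 of 10 arrays, out of 14408 m6A probes on the array. Each site was ranked by its log2 ratio of modified to input signal, set to 0 at each array's median and averaged over all 10 mice whatever their genotype. The ratio and the 2 levels that make it up therefore chose the sites, and their values are given as a description. The difference between genotypes did not enter the choice.

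The animals were 10 male mice, 5 of the genotype NPRA-/- (called KO) and 5 NPRA+/+ (called WT). NPRA is the natriuretic peptide receptor A, a guanylyl cyclase of the cell surface that binds the atrial and B-type natriuretic peptides. The knockout is described as cardiac-specific and was built on a conditional model, NprA flox/flox. The Cre driver, the age of the animals and the Cre status of the WT mice are not given in the sources used here. Total RNA came from whole myocardium, untreated, with 1 two-colour array per mouse, so fewer cells of a type and less RNA per cell cannot be told apart. Slides were told apart by the scan date in the file headers, not by a slide identifier. All 5 KO mice and WT mice 1 to 3 shared a scan date (called slide 1). WT mice 4 and 5 did not (called slide 2), and their row and column repeated those of KO mice 4 and 1. On slide 1, KO mice 1, 2, 4 and 5 occupied array row 1, and KO mouse 3 lay in row 2 with WT mice 1, 2 and 3.

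N6-methyladenosine (m6A) is the most common internal modification of messenger RNA. It is written by a methyltransferase complex built around METTL3 and METTL14, can be removed by the demethylases FTO and ALKBH5, and is read by proteins of the YTH family that act on splicing, translation and decay of the transcript. The bacterial RNase MazF cuts RNA at ACA when the adenosine is unmethylated and spares the methylated motif. One portion of each RNA was digested with MazF, enriched with an antibody against m6A and labelled with Cy5 (the modified fraction), and an undigested portion was labelled with Cy3 (the input). A high ratio thus means much uncut, antibody-bound RNA over a site for the amount of that transcript. The ratio is relative, since each array's median site was set to 0, and the same dye was used for the same fraction on every array, so a dye effect of a probe is part of its ratio. The files pair the site identifiers with no gene, position or sequence, so transcripts, cell type markers and the targeted gene were not analysed here.

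The mean log2 ratio of the 999 sites ran from 1.82 to 4.97, with a median of 2.28 and quartiles of 2.00 and 2.73. The other 8988 measurable sites ran from -5.92 to 1.82, with a median of -0.20. A mean ratio of at least 2 was reached by 753 of the 999 sites, at least 3 by 145 and at least 4 by only 3. The ratio was above 0 on all 10 arrays for 996 of the sites and above 1 on all 10 for 928. No gap separated the chosen sites from the rest: the plot of mean ratios falls smoothly through the threshold.

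**Figure D1:**
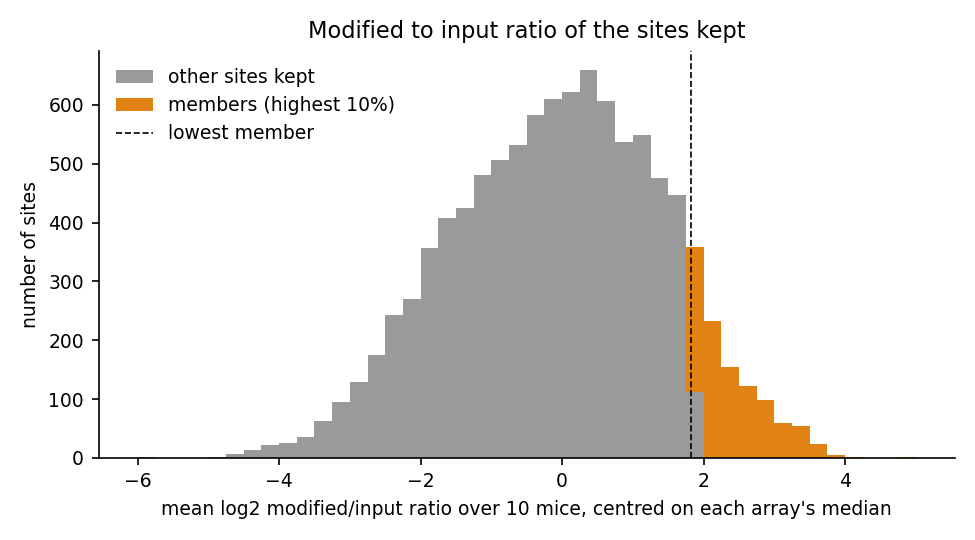
Number of sites (vertical axis) by mean log2 ratio of modified to input signal over 10 mice, with each array's median site at 0 (horizontal axis). The 999 sites chosen (orange) start at 1.82, marked by the dashed line, and form the right tail of 1 continuous distribution with the other 8988 sites (grey).

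The sites just inside and just outside the threshold had the same mean ratio to 2 decimals. ASMM10m6ADRACA1001414304, inside it, had a mean log2 ratio of 1.82 with an SD of 0.57 over the 10 mice, and ASMM10m6ADRACA1004528374, also inside, had 1.82 with an SD of 0.14. ASMM10m6ADRACA1004512324 and ASMM10m6ADRACA1004671434, both outside, also averaged 1.82, with SDs of 0.42 and 0.71. The spread between mice at the threshold was thus far larger than the distance between the last site chosen and the first left out.

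The site with the highest mean ratio was ASMM10m6ADRACA1003957504. Its log2 ratio was 5.21, 5.06, 6.11, 5.00 and 4.63 in KO mice 1 to 5. In WT mice 1 to 5 it was 5.21, 3.86, 4.91, 4.86 and 4.80. It was lowest in WT mouse 2 and highest in KO mouse 3, and the genotypes overlapped. Its input level was very low, -4.62 on the log2 scale where 0 is the array's 75th percentile, and input was well above background on 4 of the 5 KO arrays and 3 of the 5 WT arrays. With a background correction that adds an offset of 50 before the logarithm (normexp), its mean log2 ratio was 1.41, below the 1.79 to 2.17 of the next 5 sites under the same correction. With an offset of 1 it was 3.93, again the highest of the 6.

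The next 5 sites were well above background in both fractions on all 10 arrays. ASMM10m6ADRACA1004715784 had a KO mean of 4.05 ± 0.32 and a WT mean of 4.11 ± 0.54 (SD, n = 5 mice each). ASMM10m6ADRACA1002076304 averaged 4.13 ± 0.40 in KO and 3.89 ± 0.49 in WT. In both sites the genotypes overlapped, and the lowest of the 10 values was WT mouse 1, at 3.51 and 3.17. ASMM10m6ADRACA1000620794, ASMM10m6ADRACA1002253874 and ASMM10m6ADRACA1001910064 followed with mean log2 ratios of 3.93, 3.91 and 3.84 over the 10 mice. The last of these was the most variable of the 3, with an SD of 0.66 over the 10 mice and a range from 2.66 in WT mouse 1 to 4.95 in KO mouse 3.

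**Figure D2:**
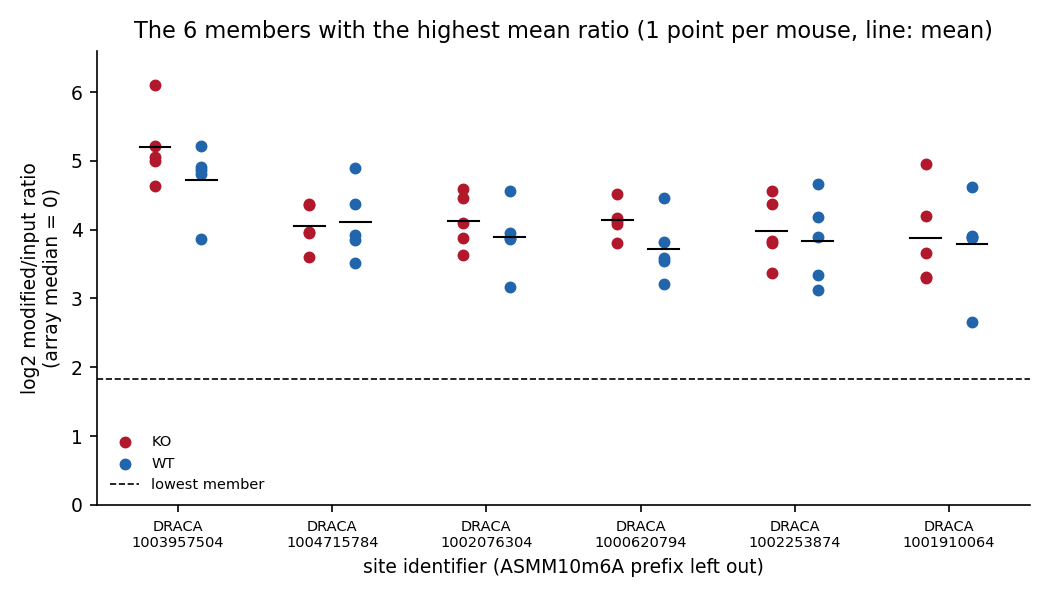
Log2 ratio of modified to input signal (vertical axis, array median at 0) for the 6 sites with the highest mean ratio, with 1 point per mouse, KO in red and WT in blue, and short lines at the mean of 5 mice. All points lie above the dashed line at 1.82, the lowest mean ratio of a chosen site, and the genotypes overlap at every site.

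The chosen sites combined a high modified signal with a modest input signal. On the log2 scale relative to each array's 75th percentile, their median modified level was 0.52, against -1.63 for the other sites. Their median input level was -1.46, against -0.82 for the others. The modified level exceeded the 75th percentile at 604 of the sites (60.5%), beside 20.5% of the other sites. The input level did so at 256 (25.7%), beside 34.9% of the others. They lay across the whole range of input, with a surplus at the bottom. Of 5 equal classes of sites by input level, the lowest held 331 of them (16.6% of that class), the next 3 held 192, 167 and 166, and the highest held 142 (7.11%). These levels are parts of the ratio that chose the sites.

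Most of the sites were detected on every array. Both fractions were well above background on all 10 arrays at 920 of the 999 sites (92.1%), compared with 55.9% of the others. The rest of the 999 passed on 9 arrays (37 sites), 8 (25), 7 (6), 6 (8) or 5 (3). The contrast with the other sites lay in the modified fraction (92.8% against 55.9% on all 10 arrays), whose high level is part of the choice. In the input the chosen sites were detected slightly less often, 97.7% against 99.7%. A spot marked as an outlier by the scanner software occurred on at least 1 array at 13 of the sites. No probe of the array's control series reached the threshold: the highest of 33 control probes kept by the same filter had a mean log2 ratio of 1.61, and the highest of 18 positive control probes had 0.72. The median was -0.54 over the control probes and lower, -1.03, over the positive control probes. Both medians lay below the array's median site, and the reason was not tested.

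The labelling mixes of both fractions held equal amounts of calibration spike-in RNA, which gives a zero point that does not depend on the median site. Before the scanner software's dye normalization, and with the mean of 65 spike-in probes set to 0, the median log2 ratio of the 999 sites was 1.11, 1.31, 1.03, 1.44 and 1.29 in KO mice 1 to 5. In WT mice 1 to 5 it was 1.37, 1.65, 1.56, 1.81 and 1.40. Every mouse was above 0, and the genotypes overlapped, with a KO mean of 1.24 ± 0.17 and a WT mean of 1.56 ± 0.18 (SD, n = 5 each). On this scale 928 of the 999 sites (92.9%) lay above the spike-in mean in all 10 mice, and none lay above it in fewer than 7. Among the other sites 647 (7.20%) did so in all 10 mice and 6036 (67.2%) in none. This is the ratio that chose the sites, taken before dye normalization and with another zero point. The distance from the other sites thus largely follows from the choice.

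The choice was also made in 9 mice at a time and read in the mouse left out, among the 9987 sites whose detection filter had used all 10 arrays. Of the 999 sites chosen each time, between 71.0% (KO mouse 3) and 81.1% (KO mice 4 and 5) lay in the highest 10% of the mouse left out, and between 99.4% and 100% lay above its median site. Choosing the highest 999 sites in WT mice alone and in KO mice alone gave 809 in common, 81.0% of each list. Sites that held their rank in every mouse were fewer: 366 of the 999 lay in the highest 10% of all 10 mice, 511 in at least 9, and 78 in fewer than 5. A further 992 sites outside the list lay in the highest 10% of at least 1 mouse.

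Within the list the order of the sites was less alike between mice than over all sites. Spearman's rho of the ratio between pairs of mice ranged from 0.89 to 0.97 over the 9987 sites, with a median of 0.93. Over the 999 chosen sites it ranged from 0.14 to 0.81, with a median of 0.56. The narrower range of ratios within the list is fixed by the choice, and the pairs share mice, so these are descriptions. The steadiest site detected on all arrays, ASMM10m6ADRACA1004528374, had an SD of 0.14 over the 10 mice, followed by ASMM10m6ADRACA1000505284 at 0.15. The 2 least steady were ASMM10m6ADRACA1001335264 at 0.93 and ASMM10m6ADRACA1004182854 at 0.83. Over the list, the median SD between mice of a genotype was 0.35 in KO and 0.46 in WT, and over the other sites it was 0.30 and 0.37.

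The comparison of KO with WT mice asked whether loss of NPRA went with altered methylation, and here it was read for the 999 sites in the ratio, in the modified fraction and in the input. In the modified fraction 44 of 998 sites (4.41%) fell in KO mice, beside 0.893% of all probes, and 0 rose. The fitted level there was lower at 830 sites (83.2%), beside 41.9% of all probes. In the input 12 sites fell and 2 rose (1.20% and 0.200%), beside 1.05% and 0.617% of all probes. The fitted input was lower at 935 sites (93.7%), beside 60.6% of all probes. In the ratio no site passed the test, and no other probe did. These calls depended on the setting, as given with each fraction. Each test was limma's moderated test on the log2 scale over every m6A probe measurable in that fraction, with Benjamini-Hochberg adjustment, and a site is said to be called, or to rise or fall, where the adjusted p was below 0.05. Of the 999 sites, 998 could be tested. The other had too few spots free of outlier marks.

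In the ratio 0 of the 998 sites were called, and 0% of all 10056 probes tested were called in either direction. The lowest adjusted p of a chosen site was 0.116. The median ratio of the sites was 2.19, 2.48, 2.07, 2.36 and 2.29 in KO mice 1 to 5 and 1.93, 2.60, 2.47, 2.52 and 2.29 in WT mice 1 to 5. The genotypes overlapped, WT mouse 1 was the lowest of all, and the means were 2.28 ± 0.16 and 2.36 ± 0.27 (SD, n = 5 each). The median fitted difference, KO minus WT, was -0.05 over the sites and 0.06 over all probes tested. Before adjustment, p was below 0.05 for 18 sites with a higher and 87 with a lower ratio in KO (1.80% and 8.72% of the sites), beside 4.19% and 4.84% of all probes. Genotypes did not overlap at 1 site higher and 9 sites lower in KO, beside 0.547% and 1.04% of all probes. The fitted difference was below 0 at 561 sites (56.2%), beside 41% of all probes. The median ratio difference had no stable sign over the list. It lay below that of all probes tested in every setting except normexp at an offset of 50. With the signal before dye normalization the median difference was -0.16, beside 0.04 over all probes, with 74.7% of sites and 44.7% of all probes below 0. With spike-in centring of that same signal it was -0.27, beside -0.07 over all probes, with 84.9% of sites and 60.1% of all probes below 0. At an unadjusted p below 0.05, 2 sites were then higher and 176 lower. With normexp at an offset of 50 the median was 0.05, with 40.5% of sites below 0 beside 51.3% of all probes, and 54 sites were higher and 18 lower. The share of all probes at an unadjusted p below 0.05 was not counted in the spike-in or offset-50 fit. How far these counts exceed those of the whole array is therefore not known. The median was also above 0 with detection required on all 10 arrays (0.01), without KO mouse 3 (0.01), without WT mouse 2 (0.03) and without both mice numbered 3 (0.02). Over all probes tested in these fits the medians were higher, at 0.10, 0.09, 0.07 and 0.08. With the deposited value table in place of the scans, 3 sites were called lower by limma (0.301% of the sites, beside 0.401% of all probes), and with normexp at an offset of 1, 1 site (0.100%, beside 0.199%).

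In the modified fraction 44 of the 998 sites fell in KO mice and 0 rose. This was 4.41% of the sites, beside 0.893% of all 10079 probes tested called lower and 0.189% called higher, and the 44 made up 48.9% of all probes called lower. Before adjustment, p was below 0.05 for 256 sites with a lower and 6 with a higher level, beside 6.87% and 9.38% of all probes. The fitted difference was below 0 at 830 sites (83.2%), beside 41.9% of all probes, and its median was -0.34 over the sites against 0.08 over all probes. With normexp at an offset of 50 the distance between these medians shrank from -0.42 to -0.10, with 82.0% of sites and 73.1% of all probes below 0, and no site was called. Genotypes did not overlap at 76 sites lower in KO and 1 higher, beside 1.89% and 1.95% of all probes.

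The same difference was seen mouse by mouse. The median modified level of the sites was 0.08, 0.22, 0.38, 0.61 and 0.26 in KO mice 1 to 5. In WT mice 1 to 5 it was 0.96, 0.94, 0.73, 0.73 and 0.62. Every KO mouse lay below every WT mouse, KO mouse 4 only just, and the means were 0.31 ± 0.20 and 0.80 ± 0.15 (SD, n = 5 each). Within slide 1 the KO mice were also all lower, by 0.57 (5 against 3 mice). With spike-in RNA as the zero point they averaged 1.32 ± 0.26 in KO and 1.86 ± 0.14 in WT, again without overlap. Over all 9987 sites the medians differed by 0.01 between genotypes and overlapped.

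**Figure D3:**
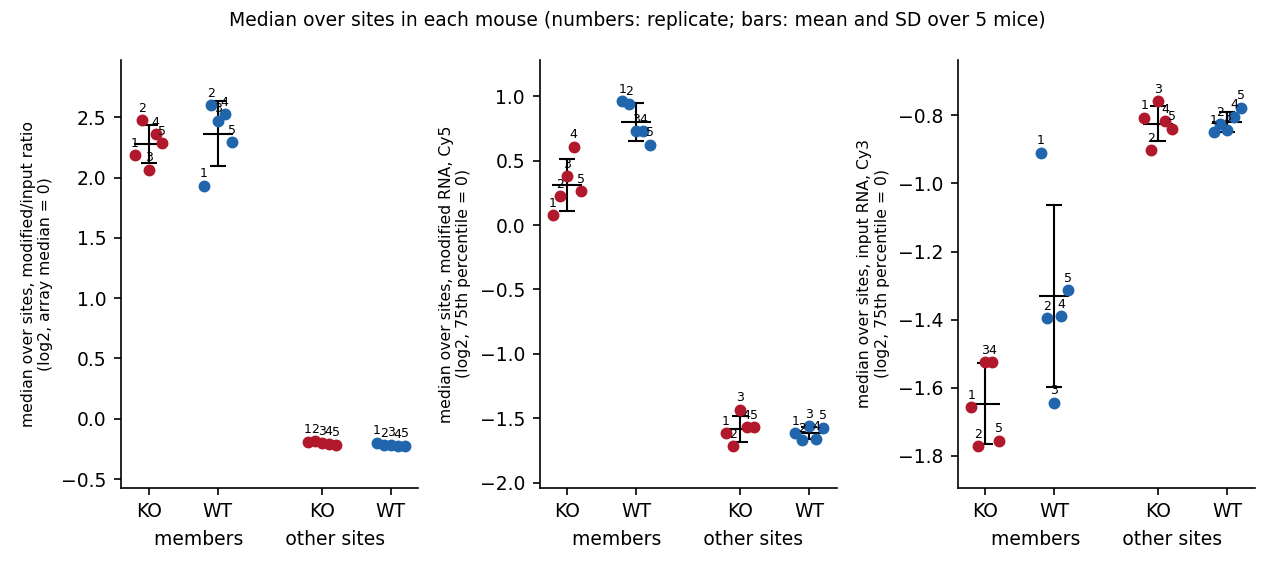
Median over the 999 sites and over the other 8988 sites in each mouse, for the ratio (left), the modified fraction (middle) and the input (right), all in log2. Points are mice, numbered by replicate, with KO in red and WT in blue, and bars give the mean and SD of 5 mice. Over the 999 sites the KO medians lie wholly below the WT medians in the modified fraction (0.08 to 0.61 against 0.62 to 0.96), whereas the genotypes overlap in the ratio and in the input.

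The number of calls in the modified fraction depended on single mice. It was 0 without KO mouse 1, KO mouse 5, WT mouse 1 or WT mouse 4. In each of these fits at most 1 probe of the whole array was called. Without WT mouse 3 it was 1, 0.100% of the sites beside 0.0829% of all probes. Without KO mouse 3 it was 15, 1.503% beside 0.743%. Without KO mouse 2, KO mouse 4, WT mouse 2 or WT mouse 5 it was 33, 65, 50 and 33. These were 3.31%, 6.51%, 5.01% and 3.31% of the sites, beside 0.694%, 1.52%, 1.07% and 0.725% of all probes. The median difference stayed between -0.41 and -0.28 without any 1 mouse. With slide as a block 218 sites were called lower, 31 of them among the 44, which was 21.8% of the sites beside 3.74% of all probes called in that fit. No site was called with spike-in centring, where 0 probes of the whole array were called. With a block for slide and row together, where the comparison rests on KO mouse 3 against WT mice 1 to 3, 2 sites were called. Every site called in any of these fits was lower in KO.

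The 44 sites fell by 0.88 to 1.55 on the log2 scale, with a median fitted difference of -1.28. All 44 were well above background in both fractions on all 10 arrays. Their input had a fitted difference below 0 at 44 of 44, with a median of -0.80, and 7 of them were also called lower in the input. Their ratio had a fitted difference below 0 at 40 of 44, with a median of -0.64, and none was called in the ratio. The plot of differences in both fractions places most of them below the line of equal change. The ratio contains the modified level on which these sites were called, so their lower ratio and this position follow in part from the call.

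**Figure D4:**
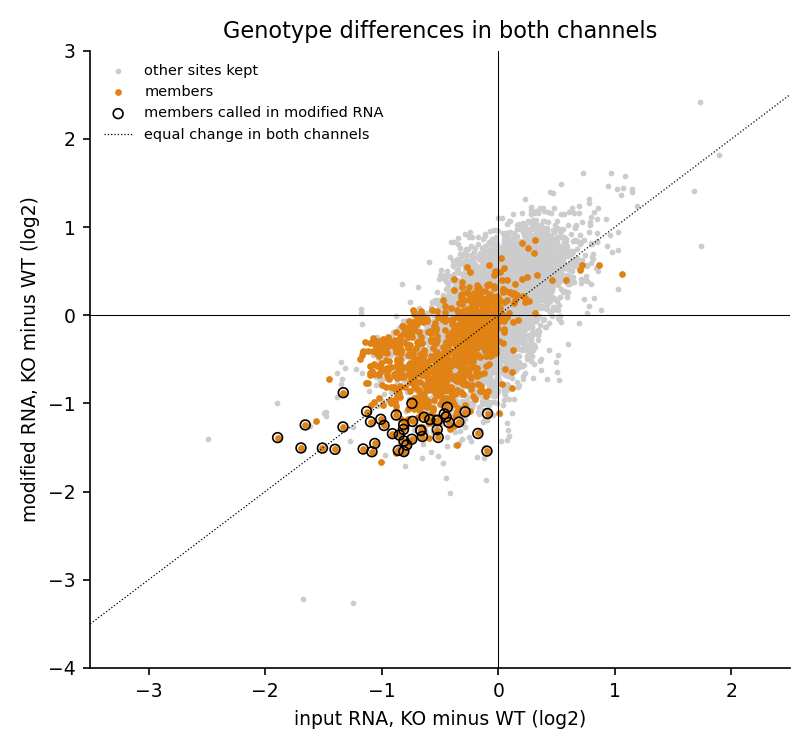
Fitted difference KO minus WT in the modified fraction (vertical axis, log2) against that in the input (horizontal axis, log2) for 9987 sites, with the sites of the highest ratio in orange and the 44 of them called lower in the modified fraction ringed. The orange points lie mostly at the lower left, where both fractions were lower in KO, and the dotted line marks an equal change in both.

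Among the called sites whose genotypes did not overlap, ASMM10m6ADRACA1004278824 had the largest fall in the modified fraction. Its modified level was -1.96, -1.11, -1.89, -0.52 and -1.72 in KO mice 1 to 5 and -0.01, -0.42, -0.29, 0.91 and 0.34 in WT mice 1 to 5. The genotypes did not overlap, with KO mouse 4 and WT mouse 2 closest. The fitted difference was -1.55 (SE 0.32, adjusted p = 0.0381 by limma), a 2.92-fold lower level. Its input differed by -0.81 (adjusted p = 0.132) and its ratio by -0.81 (adjusted p = 0.395), neither of them called. In 17 of the 24 alternative settings its modified fraction was not called, though it was lower in KO in every one.

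The next of these, ASMM10m6ADRACA1001335264, fell in the modified fraction with an input difference near 0 that was not called. Its modified level was -3.23, -2.18, -2.92, -1.78 and -1.98 in KO mice 1 to 5 and -1.01, -1.19, -0.79, -0.56 and -0.83 in WT mice 1 to 5, a fitted difference of -1.54 (SE 0.28, adjusted p = 0.0316 by limma). All 5 KO values lay below all 5 WT values. Its input differed by -0.10 (SE 0.11, adjusted p = 0.620), with overlapping genotypes. Its log2 ratio was 0.82, 1.90, 1.01, 2.26 and 1.91 in KO and 2.68, 3.04, 3.19, 3.54 and 3.06 in WT mice, and here too the genotypes did not overlap. The ratio difference of -1.52 (SE 0.28) had the smallest unadjusted p of any chosen site with a lower ratio, but missed the threshold (adjusted p = 0.116 by limma). The deposited value table gave an adjusted p of 0.0278 for it by the same test. With normexp at an offset of 50 the ratio difference was -0.22 (adjusted p = 0.434) and the modified difference -0.42, neither called. The modified fraction of this site was not called in 12 of 24 alternative settings.

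No site rose in the modified fraction. The smallest unadjusted p for a higher level was at ASMM10m6ADRACA1002541524, with 0.60 ± 0.28 in KO and 0.03 ± 0.12 in WT (SD, n = 5 each), a difference of 0.57 that missed the threshold (adjusted p = 0.163 by limma). In the ratio, the site with the smallest unadjusted p for a higher value was ASMM10m6ADRACA1004502514, with 2.28 ± 0.27 in KO and 1.69 ± 0.38 in WT and a difference of 0.59 (SE 0.22, adjusted p = 0.420 by limma). The genotypes overlapped there.

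In the input 12 of the 998 sites fell and 2 rose in KO mice, 1.20% and 0.200% of the sites. Of all 13940 probes tested, 1.05% were called lower and 0.617% higher (1.66% in either direction), so the share called lower was close to that of the whole array. The shift of the list as a whole was larger than that of the array: the fitted difference was below 0 at 935 sites (93.7%), beside 60.6% of all probes, and its median was -0.35 against -0.06. With normexp at an offset of 50 the distance between these medians was -0.12 in place of -0.28, with 96.5% of sites and 74.0% of all probes below 0. Without WT mouse 1 it was -0.18. Before adjustment, p was below 0.05 for 357 sites (35.8%) with a lower input and 3 with a higher one, beside 13.1% and 6.85% of all probes. Genotypes did not overlap at 31 sites lower in KO and 2 higher, beside 2.11% and 2.51% of all probes.

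The median input level of the sites was -1.66, -1.77, -1.52, -1.52 and -1.76 in KO mice 1 to 5 and -0.91, -1.40, -1.64, -1.39 and -1.31 in WT mice 1 to 5. The genotypes overlapped through WT mouse 3, and WT mouse 1 was the highest. The means were -1.65 ± 0.12 in KO and -1.33 ± 0.27 in WT (SD, n = 5 each). With spike-in RNA as the zero point the median fitted difference was -0.13 over the sites and 0.15 over all probes tested, so this scaling moved both upward. The distance between them, -0.28 as before, could hardly change, since each scaling subtracts 1 constant per array. With slide and row together as blocks, the median over the sites was -0.12.

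The input calls also turned on single mice. Leaving out WT mouse 3 gave 105 called sites, 10.5% of the sites beside 7.38% of all probes, and leaving out KO mouse 3 gave 28, 2.81% beside 4.00%. Leaving out KO mouse 1, 2, 4 or 5 gave 4, 3, 8 and 3. These were 0.401%, 0.301%, 0.802% and 0.301% of the sites, beside 0.504%, 0.468%, 0.825% and 0.303% of all probes. Leaving out WT mouse 1, 2, 4 or 5 gave 9, 7, 3 and 5. Here the shares were 0.903%, 0.702%, 0.301% and 0.501%, beside 0.840%, 0.411%, 0.410% and 0.725%. Without both mice numbered 3, 212 sites were called lower and 2 higher, 21.4% of the sites beside 16.7% of all probes. The number of calls thus rose over the whole array without KO mouse 3, WT mouse 3 or both. Without any other 1 mouse the share of all probes called was below the 1.66% of the main fit. With slide as a block, or within slide 1, 0 sites were called by limma.

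The input difference was largest at the most abundant sites. From the lowest to the highest of the 5 input classes, the median difference of the chosen sites in the input was -0.27, -0.25, -0.32, -0.44 and -0.81. Over the other sites of the same classes it was -0.14, -0.06, -0.01, 0.04 and 0.06. In the modified fraction the chosen sites stood at -0.31, -0.37, -0.42, -0.47 and -0.33, and the others at -0.03, 0.02, 0.06, 0.17 and 0.32. In each class the median of the chosen sites was thus below that of the others in both fractions. In the highest class the ratio of the 142 chosen sites had a median difference of 0.43, beside 0.20 for the others, and no site was called in it.

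The 12 sites that fell in the input differed by -1.89 to -0.66, and their modified level was lower in KO at 12 of 12, with a median difference of -1.24. Of these, 7 were also called in the modified fraction. Their ratio differed by a median of 0.02, below 0 at 6 of the 12.

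The largest fall in the input was at ASMM10m6ADRACA1001135214. Its input level was 0.44, 0.53, 0.93, 1.08 and 0.52 in KO mice 1 to 5 and 3.81, 1.72, 1.79, 3.27 and 2.39 in WT mice 1 to 5. All KO mice lay below all WT mice, and the WT mice spread more widely. The difference was -1.89 (SE 0.36, adjusted p = 0.0301 by limma), a 3.72-fold lower level. Its modified level fell too, by 1.39 (SE 0.27, adjusted p = 0.0355), and its ratio, at 2.92 ± 0.56 in KO and 2.49 ± 0.66 in WT, was not called (adjusted p = 0.702). The input of this site was not called in 11 of 24 alternative settings.

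ASMM10m6ADRACA1002387754 showed the same pattern. Its input was -0.43, -0.42, -0.01, 0.08 and -0.46 in KO and 2.69, 0.75, 0.46, 2.12 and 1.21 in WT mice, a difference of -1.69 (SE 0.36, adjusted p = 0.0406 by limma) without overlap. As at the previous site, WT mice 1 and 4 were the highest. Its modified level fell by 1.51 (SE 0.27, adjusted p = 0.0316) and its ratio differed by 0.11 (adjusted p = 0.929). The input of this site was not called in 17 of 24 alternative settings.

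The 2 sites that rose in the input had no called change in the modified fraction. At ASMM10m6ADRACA1001218674 the input was 1.34, 1.59, 1.39, 1.12 and 1.65 in KO and 0.81, 0.17, 0.39, -0.06 and 0.49 in WT mice, a difference of 1.06 (SE 0.16, adjusted p = 0.0129 by limma), or 2.08-fold higher. All KO values lay above all WT values. Its modified level differed by 0.47 (adjusted p = 0.340) and its ratio by -0.66 (adjusted p = 0.449). At ASMM10m6ADRACA1002541524 the input rose by 0.71 (SE 0.14, adjusted p = 0.0352 by limma). These inputs were not called in 5 and 12 of 24 alternative settings, respectively.

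**Figure D5:**
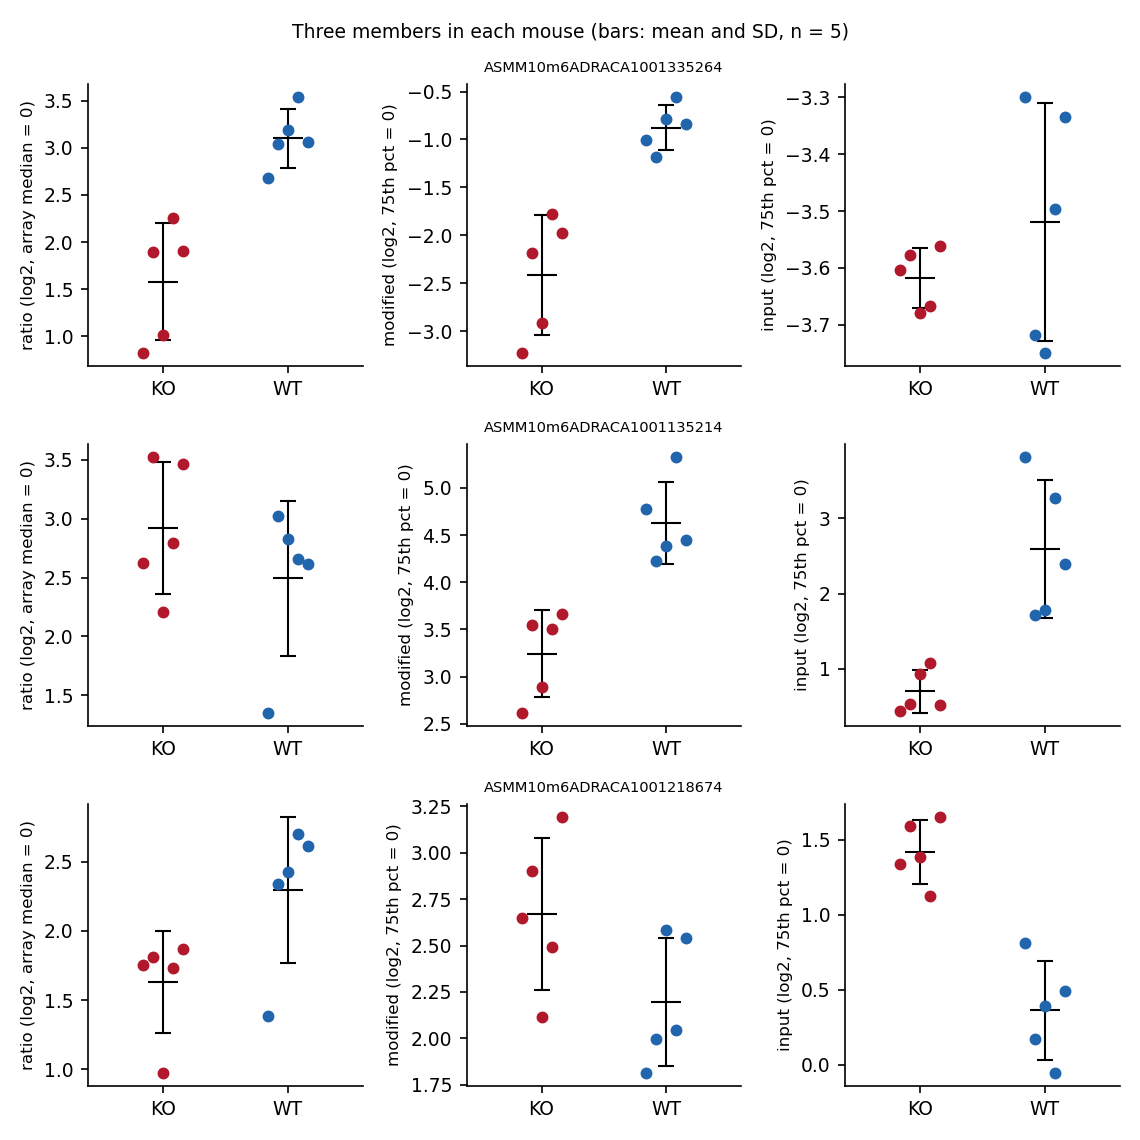
Log2 ratio (left, array median at 0), modified level (middle) and input level (right, both with the 75th percentile at 0) of ASMM10m6ADRACA1001335264 (top), ASMM10m6ADRACA1001135214 (middle row) and ASMM10m6ADRACA1001218674 (bottom). Points are mice, KO in red and WT in blue, and bars give the mean and SD of 5 mice. The genotypes separate in the ratio and the modified fraction at the top site, in both fractions at the middle one and in the input alone at the bottom one.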

How the data were processed

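The sites and lists were chosen with earlier results of these data known. Scans were read with Agilent Feature Extraction 11.0.1.1, per the submitters' processing notes, and each file holds both channels, the deposited modified and input files of all 10 mice being identical. The processed Cy5 and Cy3 intensity was background-subtracted and dye-normalized before deposit, per the file headers. Dyes were not swapped. The labels' protocols name a rabbit antibody and beads against mouse IgG. The deposited log2 value table (10004 m6A probes) equals the log2 processed signal minus a constant per array.

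Each array's log2 ratio was centred on its median over kept sites, and each fraction's log2 intensity on the array's 75th percentile. A minimum of 5 arrays with signal well above background was required. Spots marked as outliers were kept in the choice of sites and left out of the fits. Fits used limma 3.58.1 in R 4.3.3 (lmFit and eBayes) with Benjamini-Hochberg adjustment over all kept m6A probes, and were tested on simulated data. Precision is limited by the number of arrays. Replicates are separate mice, per the labels.

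Named sites are the 6 with the highest mean ratio, the 2 on either side of the threshold, the 2 least and 2 most variable, and, per comparison, up to 2 called rises and 2 called falls without overlap or else the smallest unadjusted p. Replicate numbers were checked for pairing: deviations of same-numbered mice correlated at -0.15 to 0.21 in the ratio, so no pairing was used. Alternatives covered background correction, scaling, filters, slide and row, and leaving out mice.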

Additional observations from a re-analysis of the deposited data

Results flagged for a closer look

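In 116 groups of 5 mice, Dixon's test at the 95% level marked 8 single values as far from the rest of their group, where chance gives about 5% of groups. None of these values was removed.

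WT mouse 5 had the lowest median modified level of the sites relative to spike-in RNA among the WT mice, 1.62, with the nearest at 1.90. WT mouse 1 stood apart at 3 sites. Its input at ASMM10m6ADRACA1004502514 was 2.26, with the nearest WT mouse at 1.55. Its log2 ratio was 1.39 at ASMM10m6ADRACA1001218674 and 1.35 at ASMM10m6ADRACA1001135214, below the nearest values of 2.34 and 2.62.

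KO mouse 3 was low in the ratio of ASMM10m6ADRACA1001218674, at 0.98 with the nearest at 1.73. KO mouse 2 was high in the modified level of ASMM10m6ADRACA1001414304, at 7.31 with the nearest at 6.79. WT mouse 2 was high in the modified level of ASMM10m6ADRACA1000620794, at 2.14 with the nearest at 1.13. WT mouse 3 was low in the input of ASMM10m6ADRACA1004528374, at -2.32 with the nearest at -1.27.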

How the results depend on the processing

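The median difference between genotypes over the sites kept its sign in every setting in the modified fraction (-0.45 to -0.20) and in the input (-0.49 to -0.12), and the counts of calls did not hold. In the modified fraction 44 sites were called. The count, with the share of sites and of all probes called, was 76 with the deposited value table (7.62% and 1.74%), 81 with detection required on all 10 arrays (8.75% and 3.35%), 68 with normexp at an offset of 1 (6.81% and 1.32%), 26 before dye normalization (2.61% and 0.625%), 193 within slide 1 (19.3% and 3.20%), 218 with slide as a block (21.8% and 3.74%), 4 without both mice numbered 3 (0.401% and 0.266%) and 2 with slide and row together as blocks (0.200% and 0.0695%). It was 0 with no filter on dim probes, with normexp at an offset of 50 and with spike-in centring. Leaving out 1 mouse gave 0 to 65 (the latter 6.51% and 1.52%). In the input 14 were called, against 4 with the deposited table (0.401% of the sites and 0.270% of all probes), 7 with normexp at an offset of 1 (0.701% and 0.868%), 1 with its offset at 50 (0.100% and 0.194%), 7 before dye normalization (0.701% and 1.23%), 1 with slide and row (0.100% and 0.0143%), 214 without both mice numbered 3 (21.4% and 16.7%), and 0 with slide as a block, within slide 1 or with spike-in centring. Leaving out 1 mouse gave 3 to 105 (the latter 10.5% and 7.38%). The input median was -0.12 with slide and row and -0.13 with spike-in centring. In the ratio 0 were called, against 3 with the deposited table and 1 with normexp at an offset of 1. With spike-in centring, which in the ratio used the signal before dye normalization, the median ratio difference was -0.27, beside -0.07 over all probes. The difference of the mouse medians was -0.32, beside -0.11 over all 9987 sites. With the replicate number as a block, 0 sites were called in the ratio, 0 in the modified fraction and 1 in the input, and the numbers do not pair the mice. The cause was not tested. For the genotype comparisons, normexp at an offset of 1, signal before dye normalization and outlier spots kept were chosen after seeing the data. So were the medians over the sites under every setting and, for the choice of sites, normexp at an offset of 1, outlier spots left out, and the WT or KO mice alone. Of the 999 sites, 751 were chosen again before dye normalization, 745 and 772 with normexp at offsets of 50 and 1, and 945 to 971 without any 1 mouse.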

Other observations

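In the input, the deviations of KO mouse 5 and WT mouse 3 from their genotype means correlated at r = 0.79 across sites, the highest among all pairs of a KO with a WT mouse. Both arrays lie in column 4 of slide 1, in different rows. The other KO and WT mice that share a column and slide, the mice numbered 1 and the mice numbered 2, correlated at 0.18 and 0.05. Sites are not independent replicates, and the part of array position in the input differences was not tested.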
